A study of Homo sapiens with 9 samples.

Results

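The hypoxia-inducible factor (HIF) genes and a group of hypoxia-responsive genes outside glycolysis were examined in RBE cells, an established human cell line from a cholangiocarcinoma of the intrahepatic bile ducts. The group holds 10 genes chosen by symbol: the HIF subunit genes HIF1A, EPAS1 and ARNT, the secreted peptide gene ADM, the carbonic anhydrase genes CA9 and CA12, and the stress and mitophagy genes NDRG1, BNIP3, BNIP3L and ANKRD37. All 10 were found among the 36225 genes of the deposited table, and all 10 passed the filter on low counts that left 21492 genes for testing. The cells had been infected with lentivirus that carried a scramble sequence (control) or a short hairpin RNA, either against IDH1 (shIDH1) or against JOSD2 (shJOSD2). Each group had 3 libraries, which makes 9. Every group, the control included, was thus a virus-infected derivative of 1 cell line. The number of hairpin sequences per target, the oxygen tension and the time after infection were not given in the sources used here. Whether the 3 libraries of a group stem from separate infections is not stated, and p-values therefore reflect only how far these libraries spread, which may be technical. By its title, the study concerns mutant IDH1, JOSD2 and YAP/TAZ. IDH1 encodes the cytosolic isocitrate dehydrogenase, and JOSD2 a deubiquitinase.

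HIF is a heterodimer of an oxygen-regulated alpha subunit, encoded by HIF1A or EPAS1 (HIF-2 alpha), and a constitutive beta subunit encoded by ARNT. When oxygen is present, prolyl hydroxylases of the EGLN family, which consume 2-oxoglutarate, mark the alpha subunit for the VHL ubiquitin ligase, so that HIF activity is set largely at the protein level. Stabilised HIF binds a short core element and raises transcripts that serve glucose use, blood vessel growth, pH control and mitochondrial turnover. Messenger RNA was measured here, and neither HIF protein nor hydroxylase activity was.

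Promoter sequences were read from RefSeq (GRCh38.p14) for 8 of the 10 genes, as the 250 bases before an annotated start, in 9 windows because HIF1A has more than 1 start. Those of NDRG1 and BNIP3L were not used here. The HIF core element was searched as ACGTG or GCGTG on either strand, where CACGTG, which is also an E-box, counts once on each strand. At least 1 match lay in a window of 7 of the 8 genes, all but ARNT. The second HIF1A window also held none. By window the share was thus 7 of 9, against 43.2% of 35116 RefSeq windows of the same length. ACGTG itself was present for 3 of the 8 (CA9, BNIP3 and ANKRD37), or in 3 of the 9 windows, against 18.5% of all windows. By the deposited coordinates, the windows of EPAS1 and ANKRD37 and the second of HIF1A lie inside the gene. Those of ARNT, BNIP3 and CA9 overlap it in part. Matches are descriptions of letters and were not tested as binding sites. The BNIP3 window held 6 matches, the nearest beginning 104 bases before the start, and the ANKRD37 window held 3. The windows below belong to HIF1A itself (chr14:61695263-61695512, plus strand), to ADM, which rose most in shIDH1 cells (chr11:10304823-10305072, plus strand), to CA9, which the hairpins moved in opposite directions (chr9:35673678-35673927, plus strand), and to CA12, which fell most in shIDH1 cells (chr15:63381847-63382096, minus strand). Each is written 5′ to 3′ on the strand of its gene, and capitals mark the match on either strand.
HIF1A: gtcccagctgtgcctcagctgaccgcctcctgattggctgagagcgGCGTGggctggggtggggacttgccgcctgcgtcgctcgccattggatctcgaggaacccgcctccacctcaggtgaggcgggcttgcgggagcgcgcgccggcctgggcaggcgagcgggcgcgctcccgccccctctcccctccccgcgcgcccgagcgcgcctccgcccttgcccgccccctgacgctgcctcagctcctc
ADM: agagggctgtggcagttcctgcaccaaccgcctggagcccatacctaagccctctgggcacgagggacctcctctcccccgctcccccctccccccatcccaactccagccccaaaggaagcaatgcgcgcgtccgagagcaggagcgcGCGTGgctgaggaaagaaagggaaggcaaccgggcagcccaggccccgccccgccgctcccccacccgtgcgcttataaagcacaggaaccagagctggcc
CA9: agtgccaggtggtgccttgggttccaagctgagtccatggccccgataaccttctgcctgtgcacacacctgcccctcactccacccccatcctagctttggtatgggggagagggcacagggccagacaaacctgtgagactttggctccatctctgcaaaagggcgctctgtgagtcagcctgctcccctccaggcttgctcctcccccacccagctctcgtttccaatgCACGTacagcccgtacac
CA12: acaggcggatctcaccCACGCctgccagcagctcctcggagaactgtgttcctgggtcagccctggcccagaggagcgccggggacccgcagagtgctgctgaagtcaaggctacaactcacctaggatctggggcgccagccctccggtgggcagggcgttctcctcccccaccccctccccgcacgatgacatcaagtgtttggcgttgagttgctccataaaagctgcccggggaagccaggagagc
The match began 204 bases before the start in HIF1A, 101 in ADM, 18 in CA9 and 234 in CA12. Among these 4 genes, CA9 alone held the ACGTG form, and it also had the match nearest to the start.

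Each library held 66036276 to 71612713 deposited counts, and the low values point to about 4 counts for each fragment. Each targeted gene was lowest under its own hairpin, and each was also called lower under the other. IDH1 stood at 44.0 ± 4.44 FPKM (a fragment count scaled by transcript length and by library size) in the control group, 12.6 ± 0.446 with shIDH1 and 34.5 ± 1.56 with shJOSD2. JOSD2 stood at 6.37 ± 0.260, 1.69 ± 0.174 and 0.795 ± 0.101 FPKM in the same order (SD, n = 3 each, as for IDH1). JOSD2 was thus low under both hairpins. All 8 biliary and epithelial markers were above 1 FPKM in every library, with a summed level of 1477 to 1855 FPKM. Of these 8, 4 were called higher and 2 lower in shIDH1 cells, and 1 higher and 5 lower in shJOSD2 cells. Beside these counts, 24.5% of all tested genes were called higher and 25.6% lower in shIDH1 cells, and 18.2% and 20.1% in shJOSD2 cells. The same shares stand beside the marker counts that follow. KRT7 had means of 362, 198 and 317 FPKM in control, shIDH1 and shJOSD2 cells, and KRT8 of 361, 534 and 325. Endothelial markers were below 1 FPKM throughout (5 of 5). The 6 leukocyte markers summed to 24.4 to 39.1 FPKM, mostly CD68 (means of 30.1, 22.9 and 22.1 FPKM in control, shIDH1 and shJOSD2 cells), with PTPRC at 0.574 to 1.14. The 6 fibroblast markers summed to 6.88 to 8.33 FPKM in control, 14.8 to 18.3 with shIDH1 and 15.7 to 16.2 with shJOSD2. DCN and LUM were at or near 0, and the 4 that were tested rose in shIDH1 cells, PDGFRA from 5.19 to 8.07, PDGFRB from 0.441 to 2.20 and COL1A1 from 1.91 to 5.54 FPKM among them, while 2 rose in shJOSD2 cells, PDGFRA to 11.1 and PDGFRB to 2.81. The 9 hepatocyte markers summed to 39.6 FPKM in control replicate 1, 90.5 and 94.5 in control replicates 2 and 3, 106.3 to 112.9 with shIDH1 and 60.6 to 63.5 with shJOSD2, and 3 rose and 4 fell under each hairpin. FGB rose from 1.71 FPKM in control to 42.9 and 7.13, whereas APOA1 fell from a mean of 29.5 to 2.98 and 4.32, but stood at only 2.91 in control replicate 1. The erythroid markers summed to 25.1 FPKM in control replicate 2 and 22.4 in shJOSD2 replicate 3 against at most 4.49 elsewhere. The part of these markers in the results below was not tested. Calls of the 10 genes that changed against control replicate 1 alone are named. In these bulk libraries fewer cells of a type and less RNA per cell cannot be told apart.

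**Figure D1:**
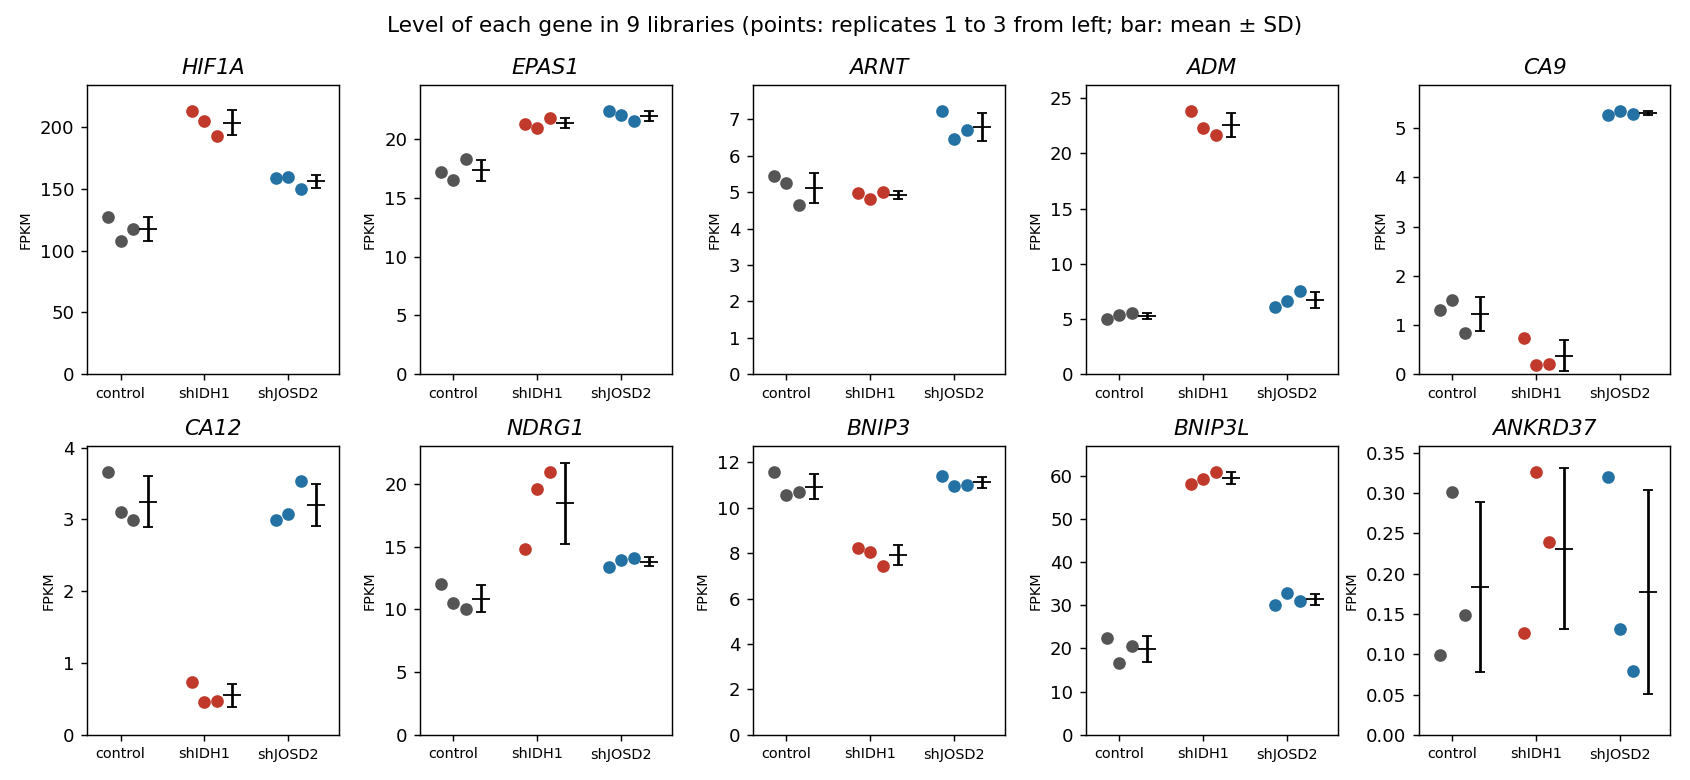
FPKM of each of the 10 genes in the 9 libraries, 1 panel per gene with its own linear axis from 0, with control in grey, shIDH1 in red and shJOSD2 in blue; points are replicates 1 to 3 from left and bars are mean ± SD (n = 3). ADM and BNIP3L are highest in all 3 shIDH1 libraries, CA12 is lowest there, CA9 is highest in all 3 shJOSD2 libraries, and ANKRD37 overlaps between all groups.

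The comparison of shIDH1 with control addresses the response to the IDH1 hairpin, under which JOSD2 was also called lower. On the log2 scale JOSD2 fell about as far as IDH1 itself. The part of each fall in the changes below was not tested. Under this hairpin the group split. ADM, BNIP3L, HIF1A, NDRG1 and EPAS1 rose, CA12, CA9 and BNIP3 fell, and ARNT and ANKRD37 did not pass the test. edgeR's quasi-likelihood test called 8 of the 10 genes (Benjamini-Hochberg adjusted p under 0.05), where 50.1% of all tested genes were called. The 5 higher calls stand beside 24.5% of all genes called higher and the 3 lower calls beside 25.6% called lower. FPKM ranges of the groups were separate for 8 of the 10, against 56.9% of all tested genes. The median log2 change of the 10 genes was 0.32, against 0.01 over all tested genes.

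The comparison of shJOSD2 with control asks the same for the JOSD2 hairpin, under which IDH1 was also called lower, by 0.50. CA9, BNIP3L, HIF1A, ARNT and EPAS1 rose, and only CA9 rose by more than 1 on the log2 scale among the 10. The test called 5 of the 10 genes, all higher, beside 38.3% of all genes called in either direction and 18.2% called higher. None of the 10 was called lower by edgeR, DESeq2 or limma, and 0 were lower at an unadjusted p under 0.05 in edgeR, beside 20.1% of all genes called lower. That share depends on the scaling: of all genes 3907 were called higher and 4330 lower, but 5638 and 2934 with library sizes alone and 4827 and 3491 with upper-quartile factors. Ranges were separate for 7 of the 10, against 51.7% of all tested genes. The median log2 change was 0.20, against 0.03 over all tested genes. Against control replicate 1 alone, HIF1A and ARNT were no longer called, with log2 changes of 0.18 and 0.20, while CA9, BNIP3L and EPAS1 were. Fewer of all tested genes were called at that setting too.

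Setting shIDH1 directly against shJOSD2 contrasts no control values, but the control libraries entered the shared fit, its filter and its scaling. ADM, BNIP3L, NDRG1 and HIF1A were higher in shIDH1 cells, and CA9, CA12, BNIP3 and ARNT were lower. The 8 calls stand beside 44.8% of all genes called, the 4 higher beside 20.8% and the 4 lower beside 24.0% (4479 and 5156 genes, but 3316 and 6653 with library sizes alone). Ranges were separate for 8 of the 10, against 58.4% of all genes. The median log2 difference of the 10 was 0.32, against -0.06 over all tested genes. A fit of the 2 hairpin groups alone called 9 of the 10, EPAS1 among them, beside 10308 of 20671 genes. Both comparisons with control share their control libraries, so each gene's changes in them are given side by side below and not correlated.

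**Figure D2:**
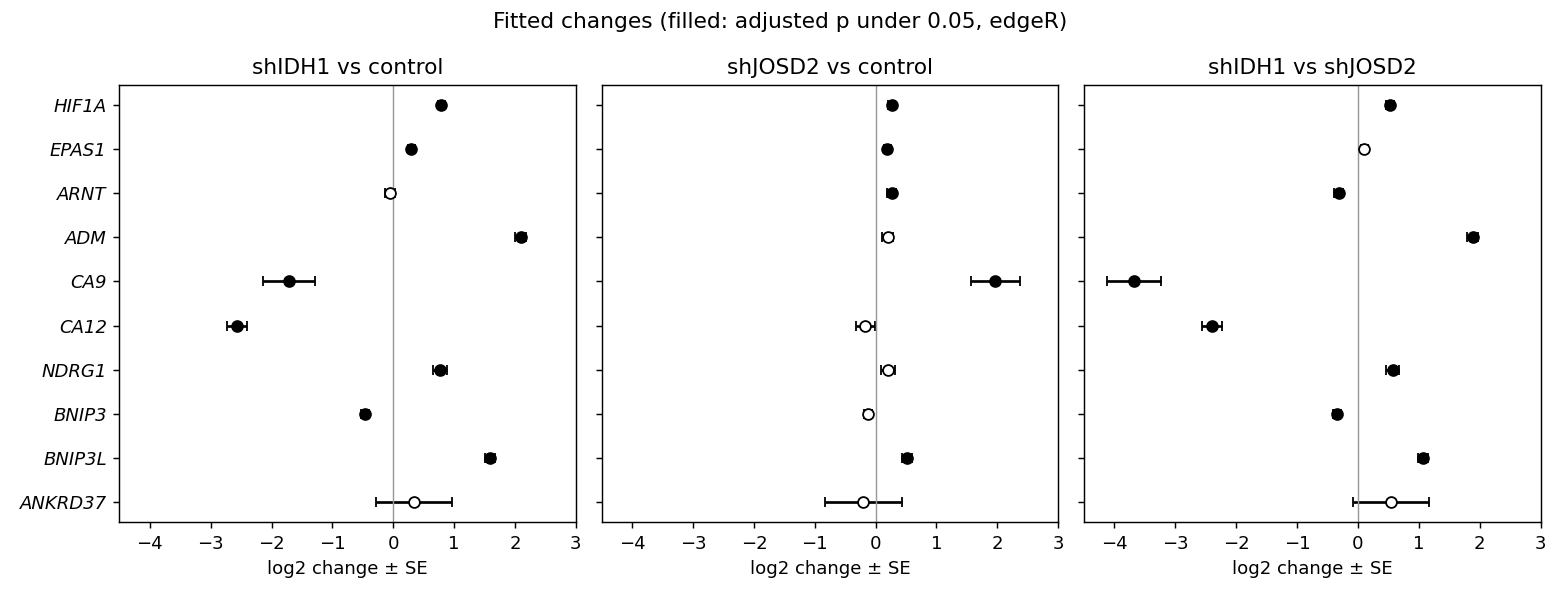
Fitted log2 change ± SE of each of the 10 genes in the 3 comparisons (edgeR, 3 libraries per group), with filled points for an adjusted p under 0.05 and a line at 0. CA9 lies at -1.71 for shIDH1 and 1.97 for shJOSD2 against control, and CA12 at -2.57 and -0.17.

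Among the HIF subunits, HIF1A (ENSG00000100644; GRCh38 chromosome 14, 61695513 to 61748258, plus strand) encodes the more widely expressed alpha subunit. It measured 127, 108 and 118 FPKM in the control libraries, 213, 205 and 193 with shIDH1 and 159, 160 and 150 with shJOSD2. The 3 groups did not overlap, with shJOSD2 between the others. Under shIDH1, HIF1A rose by 0.79 ± 0.06 in log2 units, 1.73-fold (SE; adjusted p = 3.57e-07, edgeR with Benjamini-Hochberg adjustment across the 21492 genes, as for every adjusted p and call below unless another tool is named). It rose by 0.26 ± 0.06 in shJOSD2 cells (adjusted p = 0.00438, edgeR), a call lost against control replicate 1 alone, with a log2 change of 0.18 (adjusted p = 0.107, edgeR). The hairpins differed by 0.53 ± 0.06 (adjusted p = 1.61e-05, edgeR). Its antisense transcript HIF1A-AS1, which shares 117 of 5151 exonic bases with HIF1A in GENCODE 29 on the opposite strand, reached at most 0.690 FPKM.

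EPAS1 (ENSG00000116016; chromosome 2, 46293667 to 46386696, plus strand), the gene of HIF-2 alpha, measured 17.2, 16.6 and 18.3 FPKM in the control libraries, 21.3, 21.0 and 21.9 with shIDH1 and 22.4, 22.1 and 21.6 with shJOSD2. Both hairpin groups lay above every control library and overlapped each other. EPAS1 rose by 0.30 ± 0.05 in shIDH1 cells (adjusted p = 0.000528, edgeR) and by 0.19 ± 0.05 in shJOSD2 cells (adjusted p = 0.0129, edgeR). The difference between hairpins was 0.10 ± 0.05 (adjusted p = 0.147, edgeR), and it was called in a fit of those 2 groups alone (0.14, adjusted p = 0.0295, edgeR) and by DESeq2 (0.13, adjusted p = 0.0470). It changed sign, to -0.05, when library sizes alone set the scale, as the FPKM values do.

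ARNT (ENSG00000143437; chromosome 1, 150809713 to 150876708, minus strand) encodes the shared beta subunit. It measured 5.45, 5.25 and 4.64 FPKM in the control libraries, 4.98, 4.81 and 4.99 with shIDH1 and 7.22, 6.45 and 6.70 with shJOSD2. The shIDH1 values fell within the control range, and the shJOSD2 values lay above both other groups. Its log2 change in shIDH1 cells was -0.05 ± 0.08 (adjusted p = 0.610, edgeR). It rose by 0.26 ± 0.08 in shJOSD2 cells (adjusted p = 0.0204, edgeR), but adjusted p was 0.0637 without control replicate 3, 0.0810 without shJOSD2 replicate 1 and 0.166 against control replicate 1 alone. The difference between hairpins was -0.32 ± 0.08 (adjusted p = 0.00591, edgeR).

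These levels set the ratio of alpha to beta transcripts. HIF1A over ARNT, as a ratio of FPKM, was 23.1 ± 2.46 in control and 41.4 ± 2.35 in shIDH1 libraries (SD, n = 3 each) and 21.97, 24.8 and 22.4 in the 3 shJOSD2 libraries. In shIDH1 cells the ratio was higher in every library than in any other, with HIF1A called higher and ARNT not called, whereas in shJOSD2 cells both subunit transcripts rose. EPAS1 over HIF1A was 0.148 ± 0.0114, 0.105 ± 0.00711 and 0.141 ± 0.00261 in the same order. HIF1A was the more abundant alpha transcript in all 9 libraries. The ratios were not tested.

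FPKM values are scaled by library size, and the test by TMM factors, which were 1.07 to 1.08 in shJOSD2 libraries and 0.942 to 0.985 in the 6 others. A ratio of FPKM means in shJOSD2 cells therefore exceeds the fitted change. For HIF1A the FPKM ratio to control was 1.33 and the fitted ratio 1.20. With library sizes alone the median of all genes in shJOSD2 cells moved from 0.03 to 0.18, and ADM and NDRG1 were called as well.

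ADM (ENSG00000148926; chromosome 11, 10305073 to 10307397, plus strand) encodes adrenomedullin, a secreted peptide that dilates vessels and supports endothelial cells. It measured 4.99, 5.32 and 5.51 FPKM in the control libraries, 23.8, 22.3 and 21.7 with shIDH1 and 6.05, 6.63 and 7.53 with shJOSD2. The shIDH1 libraries stood far above all others, and the shJOSD2 libraries lay just above control without overlap. ADM rose by 2.09 ± 0.09 in shIDH1 cells (adjusted p = 4.50e-09, edgeR), a 4.26-fold rise and the largest among the 10 genes. In shJOSD2 cells the change was 0.20 ± 0.09 (adjusted p = 0.103, edgeR). That change was called with upper-quartile factors (0.29), library sizes alone (0.36), a stricter filter (0.29), limma on log2(FPKM + 1) (0.30) and without shJOSD2 replicate 1 (0.28, adjusted p = 0.0432, edgeR). The hairpins differed by 1.89 ± 0.09 (adjusted p = 1.33e-08, edgeR).

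Adrenomedullin acts through the receptor CALCRL with a RAMP partner. Of 8 listed receptor and relative genes 4 were tested. Of these, 2 rose in shIDH1 cells (24.5% of all genes were called higher), and 1 rose and 1 fell in shJOSD2 cells (18.2% and 20.1%). CALCRL rose from 0.0602 FPKM in control to 0.381 in shIDH1 and 0.222 in shJOSD2 cells (log2 changes of 2.62 ± 0.31 and 1.70 ± 0.30), all below 1 FPKM. RAMP1 and RAMP2 were under the filter. ADM2, a related peptide gene, rose by 1.60 ± 0.16 in shIDH1 cells and fell by 0.85 ± 0.16 in shJOSD2 cells.

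CA9 (ENSG00000107159; chromosome 9, 35673918 to 35681159, plus strand) encodes a membrane-bound carbonic anhydrase facing outward, a much used marker of HIF activity in tumours. It measured 1.31, 1.51 and 0.831 FPKM in the control libraries, 0.735, 0.181 and 0.198 with shIDH1 and 5.27, 5.35 and 5.29 with shJOSD2. The groups did not overlap, and the shJOSD2 libraries were nearly identical while the shIDH1 libraries were not. The deposited counts behind these values were 154, 174 and 95 in control, 86, 21 and 24 in shIDH1 and 619, 600 and 588 in shJOSD2 libraries. CA9 fell by 1.71 ± 0.43 in shIDH1 cells (adjusted p = 0.00518, edgeR) and rose by 1.97 ± 0.40 in shJOSD2 cells (adjusted p = 0.00205, edgeR). The difference between hairpins was -3.68 ± 0.45 (adjusted p = 2.38e-05, edgeR), the largest among the 10 genes. The size of the shIDH1 change depended on 1 library: replicate 1 stood at 3.88 times the mean of the other two, and without it the change from control was -2.65 and the difference between hairpins -4.62.

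CA9 shares 643 of its 1670 exonic bases in GENCODE 29 with ARHGEF39 on the opposite strand, and the strand setting of the counting was not given in the sources used here. Reads of the pair may therefore not be told apart. ARHGEF39 stood at 1.80 to 2.15 FPKM in control, 0.510 to 0.732 with shIDH1 and 1.16 to 1.28 with shJOSD2. It fell by 1.63 ± 0.15 in shIDH1 cells (adjusted p = 1.26e-06, edgeR) and by 0.84 ± 0.14 in shJOSD2 cells (adjusted p = 0.000504, edgeR). In shJOSD2 cells the neighbour thus changed in the direction opposite to CA9, and in shIDH1 cells in the same direction.

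CA12 (ENSG00000074410; chromosome 15, 63321378 to 63381846, minus strand) encodes a related membrane carbonic anhydrase. It measured 3.66, 3.10 and 2.99 FPKM in the control libraries, 0.729, 0.453 and 0.467 with shIDH1 and 2.99, 3.08 and 3.54 with shJOSD2. The shIDH1 libraries lay below all others, and the shJOSD2 and control ranges overlapped. CA12 fell by 2.57 ± 0.17 in shIDH1 cells (adjusted p = 7.84e-08, edgeR), or 5.92-fold, the largest fall among the 10 genes. Its change in shJOSD2 cells was -0.17 ± 0.15 (adjusted p = 0.432, edgeR). The hairpins differed by -2.40 ± 0.16 (adjusted p = 2.10e-07, edgeR). CA9 over CA12 was 0.374 ± 0.105 in control, 0.610 ± 0.344 with shIDH1 and 1.67 ± 0.148 with shJOSD2 (FPKM ratio, SD, n = 3 each), so CA9 was the more abundant of the pair in every shJOSD2 library and in shIDH1 replicate 1, at 1.01.

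The other carbonic anhydrases did not move as a block. Of 8 tested family members, CA11 and CA5B rose and CA2 fell in shIDH1 cells, while CA11 rose and CA2 fell in shJOSD2 cells. CA2, a cytosolic enzyme, fell by 1.92 ± 0.17 and by 0.63 ± 0.16, the latter not called against control replicate 1 alone (adjusted p = 0.151, edgeR). CA11, which lacks catalytic activity, rose by 1.71 ± 0.10 and 0.82 ± 0.10. Of 6 listed genes of acid and bicarbonate transport, not all of which encode transporters, 5 rose in shIDH1 cells (24.5% of all genes were called higher). In shJOSD2 cells 3 rose and 2 fell (18.2% and 20.1%). The smaller of those falls, BSG at -0.19, was lost in 16 of 21 alternatives, such as library sizes alone (adjusted p = 0.715, edgeR), and the rise of SLC4A7 in shIDH1 cells was lost against control replicate 1 alone (adjusted p = 0.115, edgeR). SLC4A4, a sodium bicarbonate cotransporter, rose by 1.21 ± 0.14 and 1.13 ± 0.14.

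NDRG1 (ENSG00000104419; chromosome 8, 133237175 to 133302022, minus strand) is a stress-responsive gene linked to differentiation and to suppression of metastasis. It measured 12.03, 10.5 and 9.998 FPKM in the control libraries, 14.8, 19.6 and 20.9 with shIDH1 and 13.4, 13.9 and 14.1 with shJOSD2. No group overlapped another, though shIDH1 replicate 1 lay much nearer to the shJOSD2 libraries than to its own group. NDRG1 rose by 0.77 ± 0.11 in shIDH1 cells (adjusted p = 0.000107, edgeR). In shJOSD2 cells the change was 0.20 ± 0.11 (adjusted p = 0.198, edgeR), called with library sizes alone (0.35, adjusted p = 0.0252, edgeR), a stricter filter (0.28), limma on log2(FPKM + 1) (0.32), a fit of those 2 groups alone (0.20) and without shIDH1 replicate 1 (0.20, adjusted p = 0.0371, edgeR). The hairpins differed by 0.57 ± 0.11 (adjusted p = 0.00126, edgeR). The 3 other NDRG genes also rose in shIDH1 cells, NDRG4 by 1.23 ± 0.20 and NDRG2 by 0.47 ± 0.08 (24.5% of all genes were called higher). NDRG3 was not called against control replicate 1 alone, with a log2 change of 0.23. In shJOSD2 cells NDRG2 fell by 1.53 ± 0.09.

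BNIP3 and BNIP3L encode related outer mitochondrial membrane proteins that bind ATG8 proteins and mark mitochondria for removal by mitophagy, and both are known HIF targets. BNIP3L (ENSG00000104765; chromosome 8, 26383054 to 26413127, plus strand) measured 22.3, 16.6 and 20.6 FPKM in the control libraries, 58.1, 59.3 and 60.8 with shIDH1 and 30.1, 32.8 and 31.0 with shJOSD2. The 3 groups did not overlap. BNIP3L rose by 1.58 ± 0.08 in shIDH1 cells (adjusted p = 1.42e-08, edgeR), or 3.00-fold, and by 0.51 ± 0.08 in shJOSD2 cells (adjusted p = 0.000303, edgeR). The hairpins differed by 1.07 ± 0.08 (adjusted p = 4.59e-07, edgeR). PNMA2, on the opposite strand, shares 330 of 4307 exonic bases with BNIP3L in GENCODE 29, though the deposited coordinates of BNIP3L end before it. PNMA2 rose by 0.78 ± 0.06 in shIDH1 cells and fell by 0.23 ± 0.06 in shJOSD2 cells.

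BNIP3 (ENSG00000176171; chromosome 10, 131966455 to 131982013, minus strand) went the other way. It measured 11.6, 10.6 and 10.7 FPKM in the control libraries, 8.24, 8.07 and 7.43 with shIDH1 and 11.4, 10.9 and 10.997 with shJOSD2. The shIDH1 libraries lay below all others, and shJOSD2 lay within the control range. BNIP3 fell by 0.47 ± 0.06 in shIDH1 cells (adjusted p = 3.17e-05, edgeR). Its change in shJOSD2 cells was -0.12 ± 0.06 (adjusted p = 0.128, edgeR), and 0.03 with library sizes alone. The hairpins differed by -0.34 ± 0.06 (adjusted p = 0.000463, edgeR). The deposited values include 13 BNIP3 pseudogenes, the highest at 1.66 FPKM (at most 68 counts). How reads shared among these copies were assigned was not examined, so their effect on the BNIP3 values is not known. BNIP3L over BNIP3 was 1.81 ± 0.204 in control, 7.53 ± 0.587 with shIDH1 and 2.82 ± 0.180 with shJOSD2 (FPKM ratio, SD, n = 3 each).

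Of 13 tested genes of mitophagy and the ATG8 family, 7 rose and 3 fell in shIDH1 cells, with a median of 0.28, and 3 rose and 3 fell in shJOSD2 cells, with a median of -0.08. Of all tested genes 24.5% were called higher and 25.6% lower in shIDH1 cells, and 18.2% and 20.1% in shJOSD2 cells. With library sizes alone, 4 of the 13 rose and 2 fell in shJOSD2 cells. GABARAPL1, an ATG8 protein, rose from 8.68 to 49.2 FPKM in shIDH1 cells, by 2.50 ± 0.08 on the log2 scale. MAP1LC3B, encoding LC3B, rose by 1.103 ± 0.10. FUNDC1, a mitophagy receptor of the outer membrane like the BNIP3 pair, fell by 1.16 ± 0.12. Against control replicate 1 alone, the 3 higher calls in shJOSD2 cells were lost.

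ANKRD37 (ENSG00000186352; chromosome 4, 185396021 to 185400241, plus strand) encodes an ankyrin-repeat protein and is a HIF target in other cells. It was near the limit of detection, at 0.0993, 0.301 and 0.148 FPKM in the control libraries, 0.127, 0.326 and 0.239 with shIDH1 and 0.320, 0.131 and 0.0794 with shJOSD2. These values rest on 13 to 55 deposited counts each, and all groups overlapped. The log2 changes were 0.34 ± 0.62 in shIDH1 cells (adjusted p = 0.688, edgeR) and -0.20 ± 0.63 in shJOSD2 cells (adjusted p = 0.841, edgeR), so a difference was not detectable at this depth. It shares 909 of 2580 exonic bases with UFSP2 on the opposite strand in GENCODE 29.

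**Figure D3:**
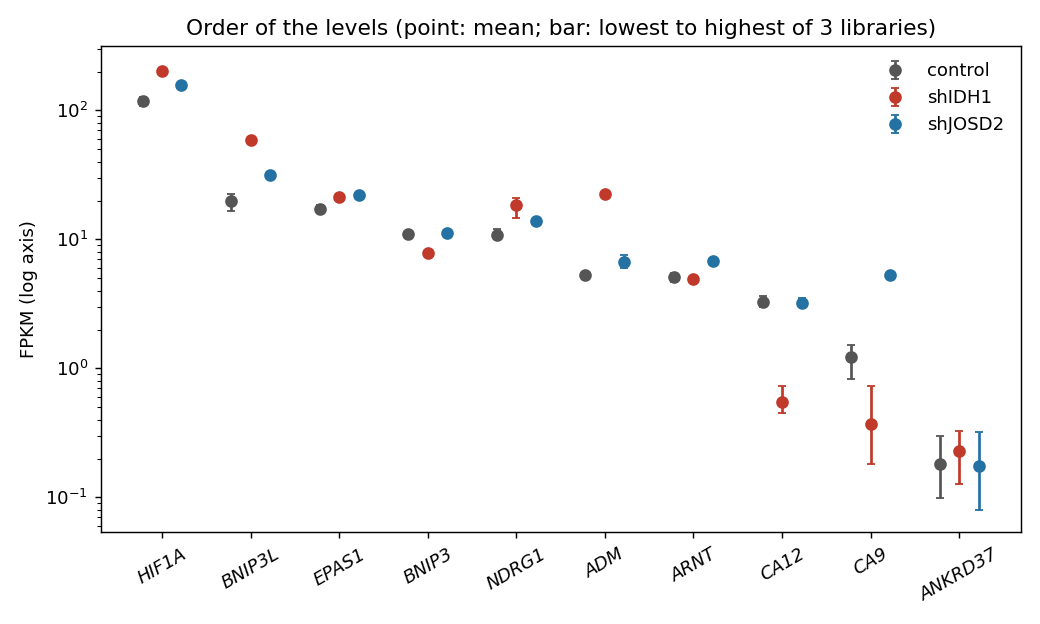
FPKM of the 10 genes by group on a log axis; points are group means and bars run from the lowest to the highest of 3 libraries. HIF1A is the highest of the 10 in each group, at 118, 204 and 156 FPKM in control, shIDH1 and shJOSD2 cells, and ANKRD37 is the lowest.

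Since FPKM is per length, levels can be set in order within a group. In control cells the order was HIF1A, BNIP3L, EPAS1, BNIP3, NDRG1, ADM, ARNT, CA12, CA9 and ANKRD37, and the ranges of BNIP3L and EPAS1, of BNIP3 and NDRG1 and of ADM and ARNT overlapped. In shIDH1 cells ADM moved to the third place, with a range that overlapped EPAS1, and at the bottom CA9 overlapped CA12 and ANKRD37, which did not overlap each other. In shJOSD2 cells CA9 stood above CA12, and only ARNT and ADM overlapped among neighbours. Leaving out control replicate 3 put 4 of the genes at another rank, and leaving out shIDH1 replicate 1 or shJOSD2 replicate 1 put 2.

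Genes upstream of HIF were next examined. Of all tested genes 24.5% were called higher and 25.6% lower in shIDH1 cells, and 18.2% and 20.1% in shJOSD2 cells. Of 9 genes of the oxygen sensors and the VHL ligase, 1 rose and 4 fell in shIDH1 cells, and 2 rose and 4 fell in shJOSD2 cells, with medians of -0.05 and -0.15. In shJOSD2 cells these counts were 4 and 3 with library sizes alone, which turns their balance, and 1 and 3 against control replicate 1 alone. VHL, the substrate receptor that recognises hydroxylated HIF alpha, stood at 7.85 FPKM in control, 5.30 with shIDH1 and 10.4 with shJOSD2. It fell by 0.57 ± 0.07 in shIDH1 cells and rose by 0.25 ± 0.06 in shJOSD2 cells, the latter not called against control replicate 1 alone (adjusted p = 0.0934, edgeR), and the hairpins differed by -0.82 ± 0.07. RBX1, the RING subunit of that ligase, fell by 0.74 ± 0.09 in shIDH1 cells, and HIF1AN, the asparaginyl hydroxylase FIH, fell by 0.39 and 0.50 in shIDH1 and shJOSD2 cells. EGLN3, a prolyl hydroxylase gene that is itself induced by HIF, rose by 0.47 in shJOSD2 cells and was the 1 higher call in shIDH1 cells, by 0.21, a call lost in 13 of 21 alternatives, with 0.08 against control replicate 1 alone (adjusted p = 0.589, edgeR). RBX1 was among the 4 lower calls in shJOSD2 cells, at -0.26, a call lost in 10 of 21 alternatives, with library sizes alone (adjusted p = 0.375, edgeR) and against control replicate 1 alone (adjusted p = 0.192, edgeR) among them. EGLN1, the main HIF prolyl hydroxylase, had log2 changes of -0.04 and 0.11, neither called.

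Of 6 tested HIF partners, paralogs and coactivators, 3 rose under each hairpin and the others were not called. Of all tested genes 24.5% were called higher in shIDH1 cells and 18.2% in shJOSD2 cells. CITED2, which competes with HIF alpha for the coactivators p300 and CBP, rose by 1.63 ± 0.06 in shIDH1 cells and 1.05 ± 0.06 in shJOSD2 cells, from 15.9 FPKM in control to 49.1 and 36.4. ARNTL, another beta-type partner, rose by 1.12 and 0.42, the latter not called against control replicate 1 alone (adjusted p = 0.148, edgeR). ARNT2, a paralog of ARNT, rose by 0.74 ± 0.10 in shIDH1 cells and had a change of -0.04 ± 0.10 in shJOSD2 cells. EP300 was called under neither hairpin, with changes of 0.06 and -0.04.

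Other hypoxia-induced genes outside glycolysis were split as well. Of 23 tested, 14 rose and 5 fell in shIDH1 cells, with a median of 0.36, and 8 rose and 6 fell in shJOSD2 cells, with a median of 0.18. Of all tested genes 24.5% were called higher and 25.6% lower in shIDH1 cells, and 18.2% and 20.1% in shJOSD2 cells. With library sizes alone, 11 of the 23 rose and 4 fell in shJOSD2 cells. HMOX1, heme oxygenase, rose by 3.68 ± 0.34 in shIDH1 cells, from 3.53 to 45.3 FPKM. LOX, a collagen cross-linking enzyme, rose by 2.29 ± 0.26. BHLHE40 and BHLHE41 are related repressors of transcription, of which BHLHE40 fell by 0.98 ± 0.09 and 1.12 ± 0.09 under the 2 hairpins and BHLHE41 rose by 1.71 and 1.26. AK4, a mitochondrial adenylate kinase, fell by 2.17 ± 0.09 in shJOSD2 cells. For comparison, 5 of 19 glycolytic hypoxia targets rose and 11 fell in shIDH1 cells, and 1 rose and 12 fell in shJOSD2 cells, with medians of -0.51 and -0.33. With library sizes alone, 3 of these 19 rose and 8 fell in shJOSD2 cells. Against control replicate 1 alone, the non-glycolytic list had 12 higher and 3 lower calls in shIDH1 cells and 7 and 6 in shJOSD2 cells.

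**Figure D4:**
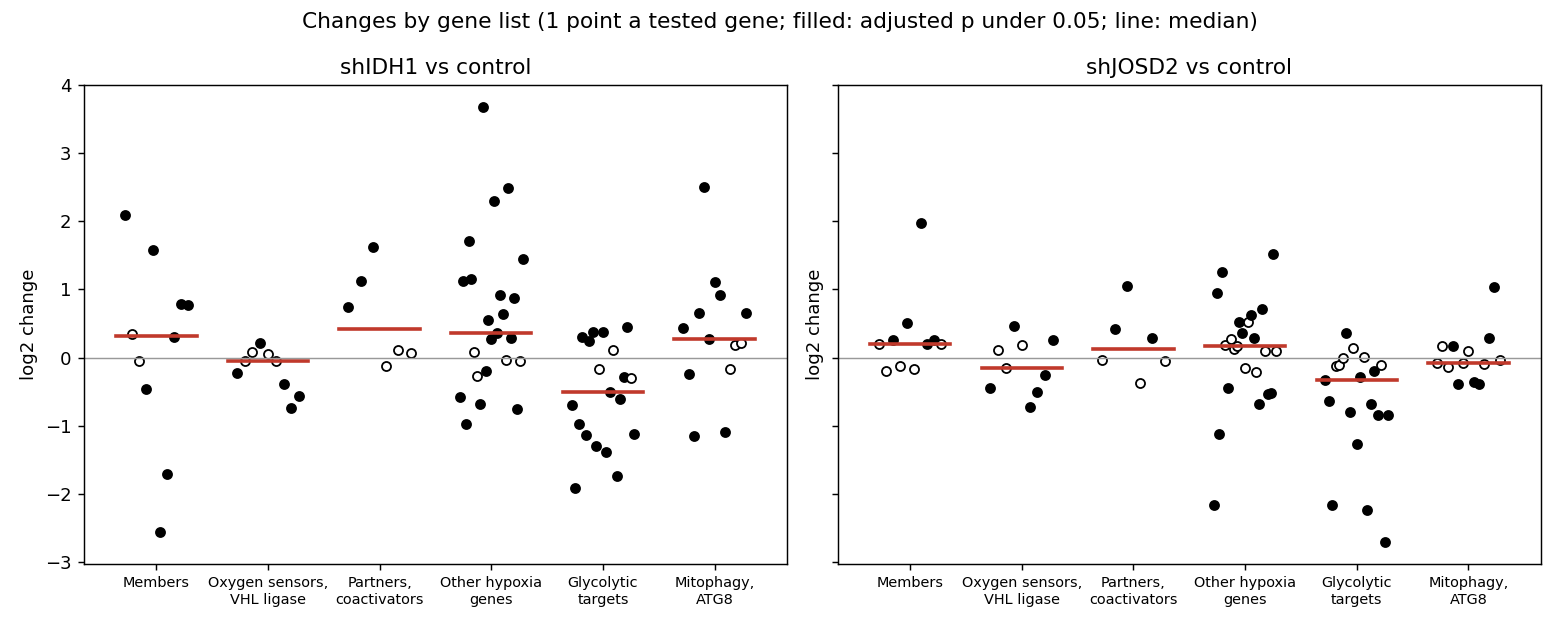
Fitted log2 changes of the tested genes of each list against control, with shIDH1 and shJOSD2 side by side, 1 point per gene and a bar at the median. The glycolytic list has medians of -0.51 and -0.33, and the other hypoxia-induced genes 0.36 and 0.18.

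The genes whose profile was most like each member were sought over the 9 libraries, by the root mean square difference of centred log2(FPKM + 1) among 12382 genes with a mean of at least 1 FPKM. Nearest to HIF1A were LINC00472 (0.0332) and MAML2 (0.0446), against a spread of HIF1A itself of 0.330. Nearest to BNIP3L were YOD1 (0.0574) and RIOK3 (0.0634), against 0.642, to CA12 NCS1 (0.0680) and TSPAN17 (0.0734), against 0.690, and to ADM RGS5 (0.112) and RND3 (0.115), against 0.842. Nearest to CA9 were TTYH2 (0.263) and MACROD1 (0.283), against 0.946, and to ANKRD37 IFITM2 (0.0812) and SCAMP2 (0.0836), against 0.112. The 9 points fall into 3 groups, and the likeness was not tested.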

How the data were processed

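Poly(A) RNA from 9 libraries was sequenced with strand-marked, UMI-tagged adapters, per the labels' protocols. The submitters' processing notes name the build GRCh38 and the tools StringTie 1.3.4d, HISAT2 2.0.4, cutadapt 1.9 and UMI-tools. Their roles, the annotation release and the strand setting were not given in the sources used here. The authors deposited counts and FPKM, per the file headers. The counts were whole numbers, and FPKM is a measure scaled by length and library size. Low counts gathered near multiples of 4, so a fragment seems to carry about 4 counts. Totals were 66036276 to 71612713, and replicates differed beyond sampling noise (chi-square per degree of freedom 3.88 to 11.1 after division by 4).

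All 9 libraries entered 1 edgeR 4.0.16 fit (R 4.3.3; TMM, filterByExpr, quasi-likelihood F-tests, Benjamini-Hochberg over 21492 genes at 0.05), tested on simulated data. The SE is the log2 change, without sign, divided by the root of F. Exact two-sided permutation of 3 against 3 libraries cannot go below p = 0.1. Alternatives were DESeq2 1.42.0, limma 3.58.1, other scalings and filters, counts divided by 4, a replicate block and each library left out. Also among them were a fit of only the 2 groups compared and control replicate 1 as the lone control. Promoters came from RefSeq. The members and lists were chosen with earlier results of these data known. Named are the 10 members, up to 4 called genes with the largest change per list and comparison, the 2 most alike genes per member, IDH1 and JOSD2; EGLN1, EP300, RAMP1, RAMP2, BSG, SLC4A7, the marker genes and the neighbouring genes were named after their values were seen. An item that this rule selects is not reported here.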

Additional observations from a re-analysis of the deposited data

Results flagged for a closer look

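CA9 was called lower in shIDH1 cells and higher in shJOSD2 cells, and the difference between the hairpins was itself tested, at -3.68 ± 0.45 on the log2 scale for shIDH1 minus shJOSD2 (SE, adjusted p = 2.38e-05, edgeR with Benjamini-Hochberg adjustment). All 3 shIDH1 libraries lay below all 3 control libraries, and all 3 shJOSD2 libraries above them. FPKM ranges were separate for 56.9% and 51.7% of all tested genes in these comparisons. The gap was narrow in shIDH1 cells, where replicate 1 stood at 0.735 FPKM (86 counts) against 0.831 (95 counts) in control replicate 3. CA9 was flagged because the groups differed, so this separation is no further evidence.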

How the results depend on the processing

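Across 21 alternatives per comparison, the members called in shIDH1 cells numbered 7 or 8 (8 reported). Among these alternatives, 1 setting took control replicate 1 as the lone control, assumed to vary like the libraries of the other groups. There HIF1A and ARNT were no longer called in shJOSD2 cells, and fewer of all tested genes were called too. At the same setting SLC2A3, not called in shIDH1 cells with all libraries (-0.30), reversed to 1.80. The cause was not tested. The replicate numbers did not pair the libraries: correlations of same-numbered libraries' deviations ran from -0.018 to 0.038. A fit with the replicate number as a block called 8, 5 and 8 members in the 3 comparisons, as without it, and 10416, 7823 and 9296 of all genes. Under a stricter filter CA9 and ANKRD37 were not tested. With library sizes alone the median of all genes moved to 0.18 in shJOSD2 cells and to -0.21 between the hairpins, and 7 members were called in shJOSD2 cells. About 4 counts per fragment leave CA9 in shIDH1 cells and ANKRD37 resting on few fragments.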
